A study of Mus musculus with 2 samples.

Results

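The nuclear genes of respiratory complex I were taken as the protein-coding genes whose symbol starts with Nduf, and 46 of the 21951 protein-coding genes in the tables met that rule. Of these, 38 carry the symbols of structural subunits (Ndufa, Ndufb, Ndufc, Ndufs and Ndufv) and 8 carry the symbols of assembly factors (Ndufaf). Total RNA was sequenced from the hearts of 2 male mice of strain B6CASTF1/J at 25 days of age, 1 library per heart, each from 300 ng of RNA with synthetic ERCC spike-in RNAs added. The labels call the libraries biological replicates 1 and 2 and tie them to animals 3 and 4 of a biobank, while giving a single donor identifier for both. There is 1 group and no treatment, other tissue or other age, so no comparison between groups was possible, and the smallest two-sided p of an exact sign-flip test over 2 hearts is 0.5. The animals are hybrids, and every sequence given below is that of the mm10 reference or of RefSeq, not one read from these mice.

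Complex I passes electrons from NADH to ubiquinone and pumps protons across the inner mitochondrial membrane. Its matrix arm carries FMN, a chain of iron-sulphur clusters and the ubiquinone site, and its membrane arm holds the proton pumps, whose central subunits are encoded by mitochondrial DNA. Around the conserved core sit accessory subunits that stabilise the enzyme, and the complex is put together in modules by assembly factors that are not part of the finished enzyme. Heart muscle is rich in mitochondria and depends on this chain for most of its ATP.

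The gene tables held 38253821 estimated counts in replicate 1 and 40655101 in replicate 2. The 46 genes took 0.686% of them in replicate 1 and 0.733% in replicate 2, and 3.37% and 3.68% of the summed TPM (abundance per unit of length as a share of the library) of nuclear protein-coding genes. Genes of heart muscle cells had a median of 3874 TPM in replicate 1 and 4086 TPM in replicate 2. None of 4 skeletal muscle or 4 lung genes reached 1 TPM in both hearts. The lung genes Sftpc, with 0.04 and 1.40 TPM, and Scgb1a1, with 0.24 and 1.28 TPM, passed it in replicate 2 alone. The 4 globin genes summed to 46360 TPM in replicate 1 and 23306 TPM in replicate 2, and the 4 adipocyte genes to 221 and 31.3 TPM. Levels are those of the first of 2 quantifications the authors deposited, unless the second is named. In whole tissue, fewer cells of a type and less RNA per cell cannot be told apart.

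Structural subunits and assembly factors occupied separate ranges of abundance. The structural symbols had a median of 284 TPM in replicate 1 and 305 TPM in replicate 2, against 18.9 and 20.7 TPM for the assembly factors. The medians of log2(TPM + 0.1) were 3.91 apart in replicate 1 and 3.89 apart in replicate 2, a mean of 3.90 ± 0.01 (SD, n = 2) or 14.9-fold. All 46 genes were at 1 TPM or more in both hearts, as were 10901 of the 21951 protein-coding genes. Of the 38 structural symbols, 35 were at 100 TPM or more in both, and the share of all protein-coding genes there was not computed. Only Ndufa4l2 among the structural symbols lay below the assembly factor range, and the lowest core subunit was 7.23 times the highest assembly factor by mean TPM, or 4.21 times in the second quantification.

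**Figure D1:**
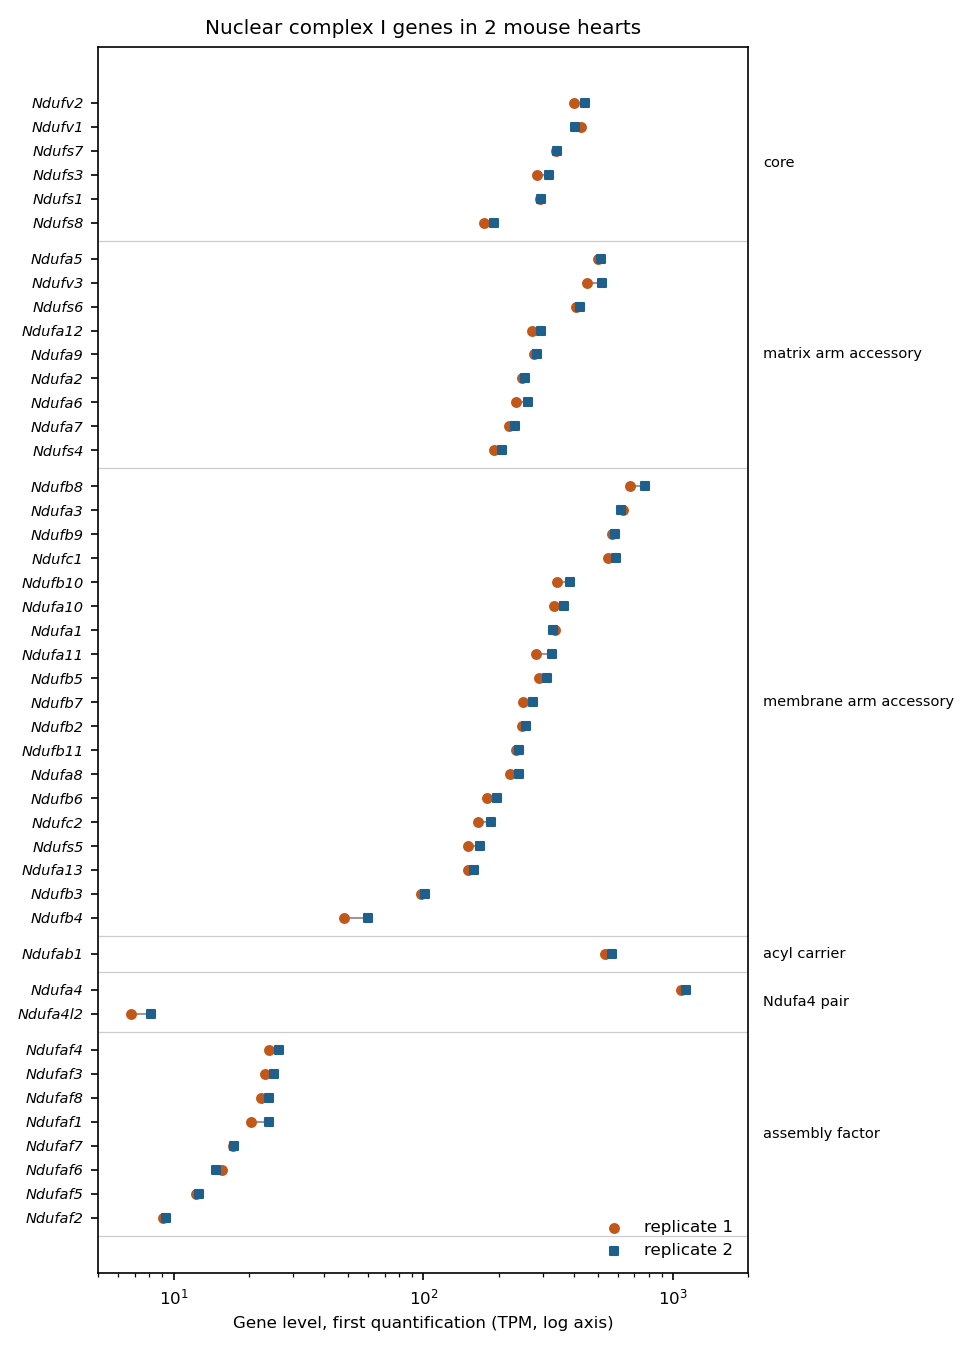
Level of 45 of the 46 genes in TPM on a log axis, with a circle for replicate 1 and a square for replicate 2, ordered within classes by mean. The symbols of both hearts lie close together for every gene, and the 8 assembly factors, between 9.18 and 25.4 TPM by mean, lie to the left of all structural symbols but Ndufa4l2.

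The 7 core subunits are those conserved from bacteria and encoded in the nucleus. Ndufv2, an iron-sulphur subunit at the electron input, had 400.2 TPM in replicate 1 and 445 TPM in replicate 2. Ndufv1, which binds NADH and FMN, had 429 and 406 TPM, so its order against Ndufv2 differed between the hearts. In the second quantification Ndufv2 was above Ndufv1 in both hearts, with 694 and 817 TPM against 598 and 622 TPM.

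Ndufs7, which carries the last iron-sulphur cluster before ubiquinone, had 338 TPM in replicate 1 and 342 TPM in replicate 2. Ndufs3, of the ubiquinone module, had 286 and 318 TPM. Ndufs1, the large iron-sulphur subunit of the electron input module, had 294 and 297 TPM. In the first quantification the values of these last 2 subunits overlapped between the hearts, whereas Ndufs7 was above both in each heart. In the second, Ndufs3 had 515 TPM in replicate 1 and 582 TPM in replicate 2. It was there above Ndufs7, at 425 and 453 TPM, and Ndufs1, at 299.6 and 315 TPM.

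Ndufs8, an iron-sulphur subunit of the ubiquinone module, was the lowest core subunit, with 175 TPM in replicate 1 and 192 TPM in replicate 2. The core genes had a median of 338 and 342 TPM, against 272 and 285 TPM for the 29 accessory subunits (Ndufa4 and Ndufa4l2 left out). On the log2 scale the difference of the medians was 0.32 in replicate 1 and 0.27 in replicate 2, smaller than the spread among the core genes themselves, whose log2 values had an SD of 0.49 and 0.46.

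The 9 accessory subunits of the matrix arm lay between 199 and 508 TPM by mean. Ndufa5 was highest at 508 TPM, followed by Ndufv3 at 485 TPM and Ndufs6, a zinc-binding subunit, at 415 TPM. Ndufa12 averaged 283 TPM, Ndufa9 281 TPM, Ndufa2 251 TPM, Ndufa6 249 TPM and Ndufa7 226 TPM. The lowest was Ndufs4 at 199 TPM, a gene whose loss in mice is used as a model of Leigh syndrome.

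The 19 accessory subunits of the membrane arm covered a wider range, from 54.1 to 722 TPM by mean. Ndufb8 had 674 TPM in replicate 1 and 769 TPM in replicate 2, Ndufa3 had 629 and 621 TPM, and Ndufb9 had 568 and 584 TPM. Ndufc1 had 549 and 589 TPM, overlapping with Ndufb9. In the first quantification these 4 genes stood apart from the rest of the arm, of which the next was Ndufb10 at a mean of 365 TPM. In the second, Ndufa3 at 427 TPM in replicate 1 and 411 TPM in replicate 2, and Ndufc1 at 486 and 569 TPM, were below Ndufb10 at 574 and 649 TPM.

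The middle of the membrane arm was closely spaced. Ndufa10 averaged 349.6 TPM, Ndufa1 333 TPM, Ndufa11 305 TPM, Ndufb5 302 TPM, Ndufb7 263 TPM, Ndufb2 252 TPM, Ndufb11 239 TPM and Ndufa8 231 TPM. Below them came Ndufb6 at 189 TPM and Ndufc2 at 176 TPM. In the order of all 46 genes by mean, 27 of the 45 pairs of neighbours had overlapping values in the 2 hearts. Ndufa4, Ndufb8 and Ndufa3, at the top of that order, each stood apart from the next gene.

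The lowest membrane arm genes were Ndufs5, Ndufa13, Ndufb3 and Ndufb4. Ndufs5 had 151 TPM in replicate 1 and 169 TPM in replicate 2, and Ndufa13 (also known as GRIM-19) had 151 and 159.7 TPM. Ndufb3 had 98.0 and 101 TPM. Ndufb4 had 48.2 and 60.0 TPM, below every other subunit of the enzyme in both hearts, but Ndufb4 and Ndufs5 have near-identical pseudogenes that took counts, described below.

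The medians of the arms were close. The matrix arm accessory genes had a median of 272 TPM in replicate 1 and 285 TPM in replicate 2, against 252 and 274 TPM for the membrane arm. The log2 difference averaged 0.08 ± 0.04 (SD, n = 2), and in the second quantification deposited by the authors it was -0.047, so no direction between the arms was drawn. Ndufab1, the mitochondrial acyl carrier protein, which sits in both arms, had 532 TPM in replicate 1 and 567 TPM in replicate 2.

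Ndufa4 and Ndufa4l2 carry complex I symbols, but the Ndufa4 protein was later assigned to cytochrome c oxidase (complex IV). Ndufa4 was the highest of the 46 in the first quantification, with 1077 TPM in replicate 1 and 1123 TPM in replicate 2. In the second it had 1025 and 1120 TPM and was below Ndufb8, at 1199 and 1354 TPM. Ndufa4l2, its paralogue that is induced by hypoxia, was the lowest, with 6.78 and 8.10 TPM. The 2 paralogues were the ends of the range in the first quantification, which spanned 148-fold with them and 13.3-fold over the other 36 structural genes. Those 36 spanned 7.24-fold with the TPM of 1 pseudogene copy added to each of Ndufb4, Ndufs5, Ndufa12 and Ndufab1 (copies described below), and 7.57-fold in the second quantification. The SD of log2(TPM + 0.1) among structural symbols was 1.203 in replicate 1 and 1.17 in replicate 2 with the pair, 0.78 and 0.75 without it, and 0.63 and 0.62 without it and with the copies added.

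The 8 Nduf assembly factors lay within 2.76-fold of each other. Ndufaf4 had 24.2 TPM in replicate 1 and 26.5 TPM in replicate 2, and its binding partner Ndufaf3 had 23.2 and 25.2 TPM. Ndufaf8, which acts with Ndufaf5, had 22.4 and 23.99 TPM. Ndufaf1, of the assembly complex that builds the membrane arm, had 20.5 and 24.1 TPM. The values of these 4 genes overlapped from each to the next.

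Ndufaf7, a methyltransferase of the mitochondrial matrix, had 17.3 TPM in replicate 1 and 17.4 TPM in replicate 2. Ndufaf6 had 15.6 and 14.7 TPM, and Ndufaf5, a hydroxylase that modifies Ndufs7, had 12.2 and 12.7 TPM. Ndufaf2, a paralogue of Ndufa12, was lowest with 9.03 and 9.33 TPM, from 171 and 190.0 counts. These 4 genes did not overlap with their neighbours in the order.

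Assembly factors of complex I without an Nduf symbol had levels like these. The 11 measured genes of that list had a median of 20.1 TPM in replicate 1 and 19.98 TPM in replicate 2, and all 11 were at 1 TPM or more in both hearts. Among the partners of Ndufaf1, Ecsit had 34.8 and 36.9 TPM, Acad9 had 17.6 and 15.2 TPM, Tmem126b had 8.31 and 8.63 TPM, Timmdc1 had 23.5 and 25.3 TPM and Tmem186 had 5.26 and 6.07 TPM.

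Of the remaining genes on that list, Tmem126a had 40.8 TPM in replicate 1 and 46.0 TPM in replicate 2, and Tmem70, which also serves ATP synthase assembly, had 38.7 and 42.2 TPM. Foxred1 had 32.2 and 33.8 TPM, Dmac1 had 20.1 and 19.98 TPM, and Lyrm2 had 11.7 and 12.6 TPM. Nubpl, which delivers iron-sulphur clusters to complex I, was lowest with 3.64 and 3.26 TPM. The highest of the 11 remained below every core subunit in both hearts.

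Set beside the other complexes of the chain together, the structural symbols of complex I were lower. Their median of 284 TPM in replicate 1 and 305 TPM in replicate 2 compares with 576 and 594 TPM for 41 nuclear subunit genes of complexes II to V, a log2 difference of -1.02 and -0.96. By mean in the first quantification, 3 of the 38 structural symbols were above the median of complexes II to V (Ndufa4, Ndufb8 and Ndufa3). Of the 41 genes, 37 were above the structural median. Complex II had the nearest median, 416 and 428 TPM, and complex IV the highest, 854 and 856 TPM. The order against complex II turned in the second quantification. The structural median there was 384 TPM in replicate 1 and 436 TPM in replicate 2, and that of complex II was 378 and 389 TPM. Ndufa3, at a mean of 419 TPM there, was below the median of complexes II to V, 941 TPM. Ndufa4 and Ndufb8 remained above it. These are descriptions over genes, which are not replicates.

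**Figure D2:**
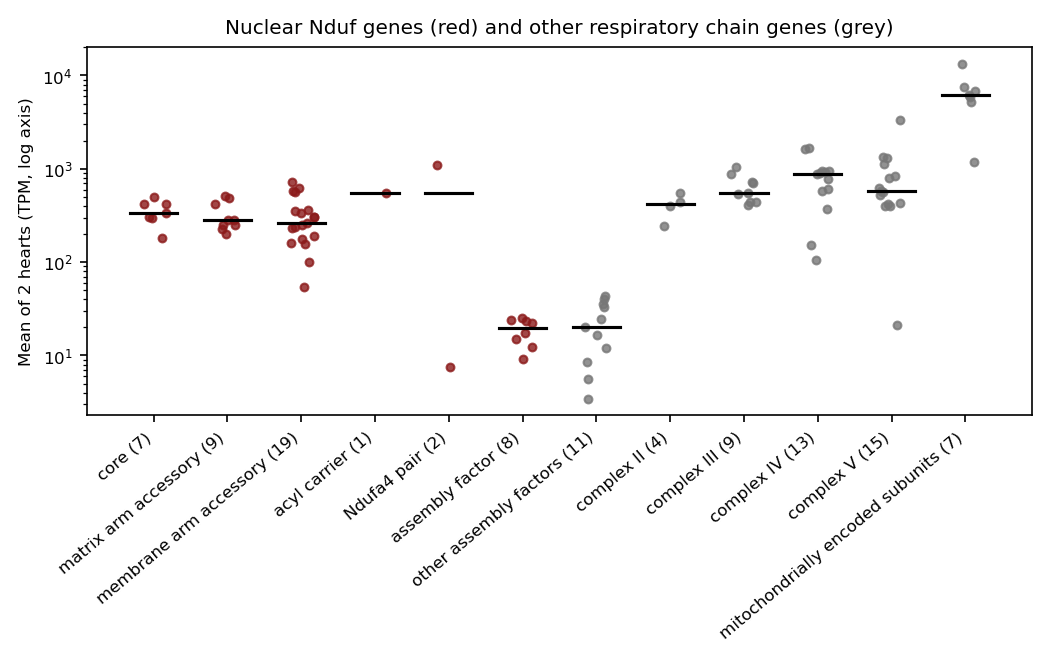
Mean TPM of the 2 hearts in the first quantification for each gene, on a log axis, for the Nduf classes (red) and for other assembly factors, complexes II to V and the mitochondrially encoded complex I subunits (grey), with the number of genes in brackets and a bar at the median. The Nduf assembly factors sit at the level of the other assembly factors, the medians of the core class and of both accessory arms sit below those of complexes III to V, and the median of the mitochondrial genes sits highest.

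The 7 subunits encoded by mitochondrial DNA form the proton-pumping membrane domain, and in the first quantification 6 of them were above every Nduf gene in both hearts. They had a median of 5595 TPM in replicate 1 and 6869 TPM in replicate 2. mt-Nd1 had 16104 and 10621 TPM, mt-Nd2 had 4864 and 5629 TPM, and mt-Nd3 had 5595 and 6164 TPM. mt-Nd1 was thus higher in replicate 1 while both others were lower there.

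mt-Nd4 had 6922 TPM in replicate 1 and 8318 TPM in replicate 2, and mt-Nd5 had 5482 and 6869 TPM. mt-Nd6, the only member on the other strand, was lowest with 917 and 1461 TPM. In all, 6 of the 7 were lower in replicate 1 after TMM scaling, with log2 ratios from -0.64 for mt-Nd6 to 0.64 for mt-Nd1, a wider range than over the 46 nuclear genes. mt-Nd4l had 103 TPM in replicate 1 and 114 TPM in replicate 2 in the second quantification, against 6492 and 7216 TPM in the first, so its level is uncertain. Gm28439, a nuclear copy of mt-Nd4 on chromosome 1 with 100% identity over 876 bases, had 9179 counts in replicate 1 and 21588 in replicate 2 in the second quantification and 0 in both hearts in the first.

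Between the hearts the nuclear genes differed little. After TMM scaling, 0 of the 46 differed by 2-fold or more between replicate 1 and replicate 2. Among the 12908 genes at a mean of 1 CPM (counts scaled by the TMM-adjusted library total) or more, 1.2% did. At 1.5-fold the count was also 0 of 46, against 4.52% of all genes. At such shares few or none of any 46 genes would pass, so the 0 does not set these genes apart. With 1 library per heart there is no test of these ratios, and the intervals given next cover counting error only.

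The small differences ran mostly one way under that scaling. With TMM, 38 of the 46 genes were lower in replicate 1 and 8 were higher, where 52.2% of all genes were lower in replicate 1, but with scaling to the spike-ins 3 were lower and 43 higher. The spike-in scaling shifted the median log2 ratio of all genes to 0.14, from which the member median lay -0.05 away, the same distance as with TMM. Relative to the median of all genes, 35 of the 46 were lower in replicate 1 and 11 were higher. The globin genes (median log2 ratio 1.02) and the adipocyte genes (2.69) were higher in replicate 1, and their part in this pattern was not tested.

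Single ratios of replicate 1 over replicate 2 ran from -0.26 for Ndufa4l2 to 0.07 for Ndufa1 on the log2 scale. The exact 95% counting interval excluded 0 for 24 genes with TMM, of which 21 were lower in replicate 1. It was not computed for other genes, so whether 24 of 46 is usual at such counts cannot be told. Ndufa11 had the largest such ratio, with 3888 counts in replicate 1 and 4851 in replicate 2 and a log2 ratio of -0.18 (interval -0.24 to -0.12). Ndufv3 followed at -0.15 (-0.20 to -0.10). The 3 genes higher in replicate 1 were Ndufv1 at 0.05, Ndufa3 at 0.06 and Ndufa1 at 0.07.

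**Figure D3:**
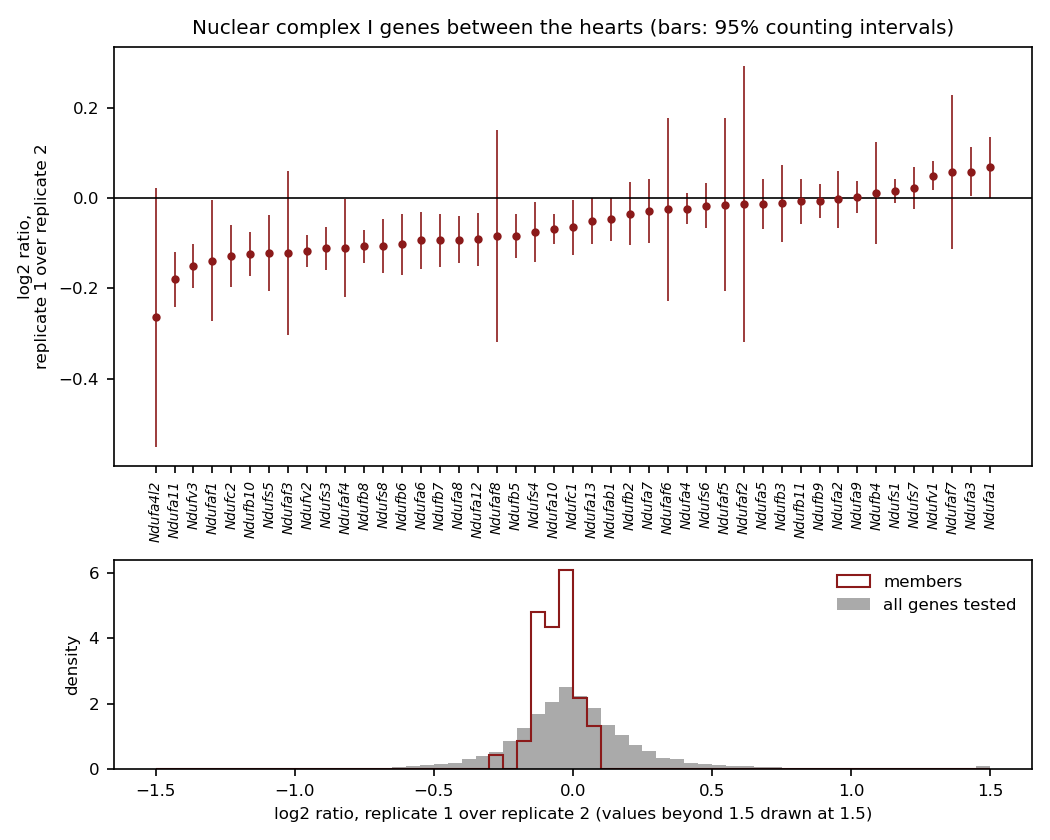
Upper panel: log2 ratio of replicate 1 over replicate 2 after TMM scaling for 45 of the 46 genes, with exact 95% counting intervals. Lower panel: the density of the same ratio for the 46 genes (outline) and for all 12908 genes tested (grey). All 46 ratios lie between -0.26 and 0.07, inside the spread of all genes.

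The authors deposited a second quantification, made directly from the reads, in which the same genes were mostly higher. Of the 46, 39 were higher and 7 lower in the second, with a median log2 ratio of the second over the first of 0.48 for structural symbols and 0.41 for assembly factors. Protein-coding genes at 1 TPM or more had 0.27, and the 1712 of them as short as the structural genes (456 to 1273 bases) had 0.39. In member transcripts of 1000 bases or more, the deposited effective length was 332 (replicate 1) and 335 bases (replicate 2) under the length in the second quantification and 99.0 bases under it in the first.

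Past 2-fold between the quantifications were 3 of the 46 genes, and the share of all protein-coding genes past it was not computed. All 3 were higher in the second quantification. Ndufb4 had 305 TPM in replicate 1 and 362 TPM in replicate 2 there, against 48.2 and 60.0 TPM in the first. Ndufaf3 had 50.2 and 52.3 TPM in the second, against 23.2 and 25.2 TPM in the first. Ndufs5 had 301 and 365 TPM in the second, against 151 and 169 TPM in the first. For all 3, the hearts did not overlap between the quantifications.

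**Figure D4:**
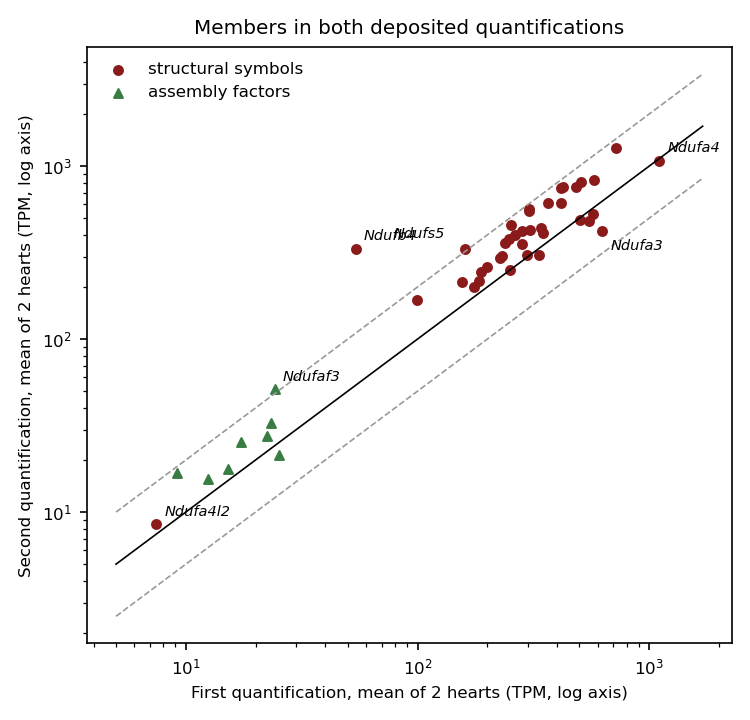
Mean TPM of the 2 hearts for each of the 46 genes in the second quantification (vertical) against the first (horizontal), both on log axes, with the line of equal values and dashed lines at 2-fold. Ndufb4 lies farthest from the line, at 333 TPM in the second and 54.1 TPM in the first.

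Ndufb4 and Ndufs5 have processed pseudogenes, intronless copies of their messenger RNA elsewhere in the genome. Ndufb4 lies at chr16:37647170-37654453 on the minus strand (mm10), and its pseudogene Ndufb4c at chr15:73809507-73809896. All 387 coding bases of transcript Ndufb4-201 are in the pseudogene without a difference, so a read lying wholly in the coding part has the same bases in both. The first 90 coding bases (chr16:37654270-37654359 for the gene, chr15:73809807-73809896 for the copy, minus strand in both) show this, in lower case throughout because nothing differs.
Ndufb4: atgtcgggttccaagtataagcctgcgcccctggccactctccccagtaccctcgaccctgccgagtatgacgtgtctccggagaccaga
Ndufb4c: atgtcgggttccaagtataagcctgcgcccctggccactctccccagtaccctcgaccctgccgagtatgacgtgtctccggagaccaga

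In the first quantification Ndufb4 was given 1215 counts in replicate 1 and 1327 in replicate 2, while Ndufb4c was given 2081 and 2545. The copy thus held 63.1% and 65.7% of the pair's counts, and 219 and 249 TPM. In the second quantification Ndufb4c had no counts in either heart. With the TPM of the copy added, Ndufb4 would have 267 TPM in replicate 1 and 309 TPM in replicate 2, within the range of the other membrane arm genes.

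Ndufs5 lies at chr4:123712710-123718202 on the minus strand and its pseudogene BC002163 at chr16:42955631-42955949. The copy differs from the 318 coding bases of Ndufs5-201 at 2 positions, T81C and A105G, counted from 1 at the first coding base with the gene's base first. Both fall in coding bases 21 to 110, shown here with the differing bases in capitals (chr4:123715970-123716059, minus strand, for the gene and chr16:42955651-42955740, plus strand, for the copy).
Ndufs5: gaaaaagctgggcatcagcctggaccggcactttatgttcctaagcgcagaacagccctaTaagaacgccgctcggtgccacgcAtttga
BC002163: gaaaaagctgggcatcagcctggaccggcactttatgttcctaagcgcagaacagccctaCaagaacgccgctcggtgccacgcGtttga

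Ndufs5 was given 2121 counts in replicate 1 and 2541 in replicate 2, and BC002163 was given 610 and 820 counts, 22.3% and 24.4% of the pair. In the second quantification BC002163 had no counts. With the copy added, Ndufs5 would have 236 TPM in replicate 1 and 275 TPM in replicate 2 in the first quantification.

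Leaving out genes that overlap the member itself, 16 of the 46 genes had 35 such copies (at least 90% identity over at least 100 coding bases), all annotated as pseudogenes, and 3 copies held over 10% of their pair. The third was Gm15920, a copy of Ndufa12 (99.5% identity over 399 bases), with 12.1% of the pair in replicate 1 and 12.0% in replicate 2. Gm4459, a copy of Ndufab1 (99.8% identity over 468 bases), went the other way between the methods, with 1124 and 1168 counts in the second quantification and 163 and 225 in the first. No pair of Nduf genes matched each other at this threshold.

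The other 5 Nduf symbols in the tables are not annotated as protein-coding and were left out. Besides Ndufb4c, Ndufa11b, Ndufab1-ps and Ndufs6b are processed pseudogenes, each under 1 TPM in both hearts. Ndufb1-ps, at chr12:101968090-101977068, is a bidirectional promoter lncRNA in the annotation used, and had 115 TPM in replicate 1 and 123 TPM in replicate 2. Its level was that of a low structural subunit in the first quantification. In the second it had 276 TPM in replicate 1 and 313 TPM in replicate 2.

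Most genes were carried by a main transcript. The 46 genes have 226 annotated transcripts, 6 genes having 1 and 40 having several. Of the 40, the transcript with the highest share of the gene's TPM was the same in both hearts for 39 (Ndufaf1 was the exception), and in 35 its share passed 50% in each heart. In the second quantification the same transcript led in replicate 1 in 27 of the 40, and 30 had a leader over 50% in each heart. Of those 27, Ndufa3 and Ndufs6 had another leader in replicate 2. Leading transcripts were not counted for genes outside the 46, so these counts do not set the Nduf genes apart.

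Ndufv3 had nearly all of its level in a transcript that lacks a long coding exon. Transcript Ndufv3-202 held 98.9% of the gene in replicate 1 and 99.0% in replicate 2 in the first quantification, and 99.0% over the hearts in the second. It lacks the exon at chr17:31527310-31528401 (plus strand), which Ndufv3-201 includes and which is 1092 bases long and coding throughout. Ndufv3-202 has 312 coding bases, or 104 codons, against 1404 and 468 in Ndufv3-201. Ndufv3 is an accessory subunit near the electron input for which a short and a long form are known in mammals. The coding junction made by leaving out that exon lies within chr17:31521669-31531133 and joins position 172 to position 173 of the coding sequence, with 24 bases on each side and those after the junction in capitals.
Ndufv3-202 junction: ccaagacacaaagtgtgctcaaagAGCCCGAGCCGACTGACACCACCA

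For 8 of the 40 genes the leading transcript in the first quantification was not annotated as coding: Ndufa3, Ndufa5, Ndufab1, Ndufaf4, Ndufaf7, Ndufaf8, Ndufc1 and Ndufs4. Ndufa3-204, a transcript of 343 bases annotated for nonsense-mediated decay, held 93.6% of Ndufa3 in replicate 1 and 94.2% in replicate 2, but 47.9% and 25.9% in the second quantification. Ndufc1-203, a transcript of 311 bases with a retained intron, held 58.9% and 59.1% of Ndufc1 in the first and none in the second, where Ndufc1-202 held 96.9%. The shares of these transcripts of Ndufa3 and Ndufc1 thus differed between the quantifications. Ndufaf7 and Ndufaf8 also had another leader in the second. Ndufa5, Ndufs4, Ndufab1 and Ndufaf4 kept theirs. Mean shares in the first and second were 66.8% and 67.4% for Ndufa5-204 and 49.85% and 58.1% for Ndufs4-204. They were 36.6% and 83.7% for Ndufab1-205, and 57.8% and 90.5% for Ndufaf4-202. The gene levels above do not by themselves give the level of coding RNA.

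Shares of coding transcripts differed between the quantifications too. Ndufa4-204 held 2.43% of Ndufa4 in replicate 1 and 34.1% in replicate 2 in the second quantification, where Ndufa4-205 led, against 86.3% and 86.6% in the first. Ndufa7-201 held 91.5% and 91.8% of Ndufa7 in the first and 0% and 2.84% in the second. In the first quantification Ndufb4-201 held 79.0% of Ndufb4 in replicate 1 and 51.6% in replicate 2, with nearly all of the rest in Ndufb4-202, a shorter transcript with a retained intron. The TPM of Ndufb4 was lower in replicate 1 there, beside a log2 ratio of counts of 0.01. In the second quantification Ndufb4-201 held 9.77% and 8.55%, and Ndufb4-202 led with 89.98% and 91.4%, so the hearts were closer there.

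**Figure D5:**
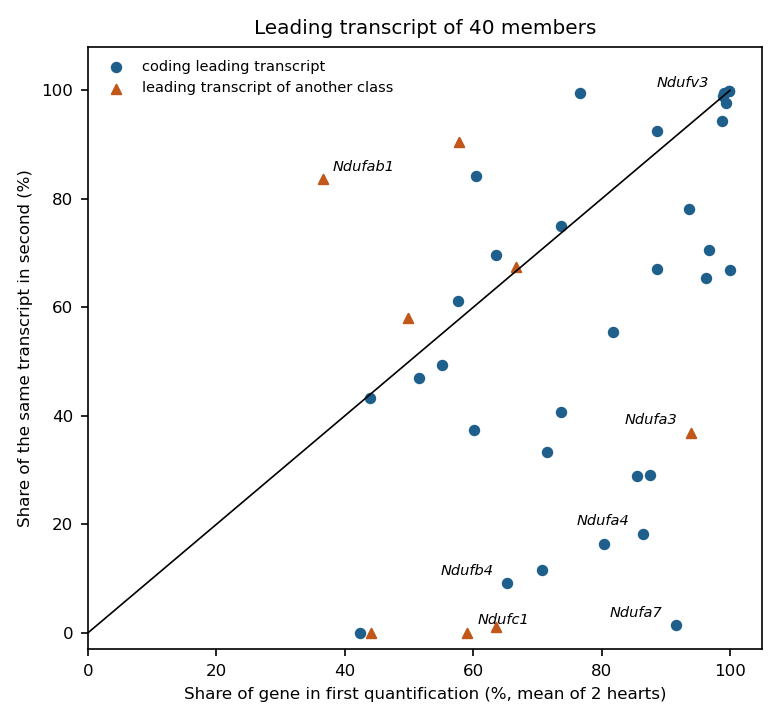
Share of the gene's TPM held by the transcript that leads in the first quantification, for the 40 genes with several transcripts, in the second quantification (vertical) against the first (horizontal), in percent, as means of the 2 hearts. Ndufv3 sits at 98.9% in the first and 99.0% in the second, while Ndufa7, Ndufa4 and Ndufc1 lie far below the line of equal shares.

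Promoters were matched by symbol for 40 of the 46 genes as 42 RefSeq windows (GRCm38.p6) that run from 250 bases before to 50 bases after the start. NRF-1 is a transcription factor known for binding promoters of respiratory chain genes, and its letters GCGCANGCG, searched on both strands, were in 11 of the 42 windows (26.2%), against 6.25% of all 32851 windows. The windows of the Nduf genes had a median GC content of 59.3% and 20.5 CG dinucleotides, against 52.7% and 7 for all windows, and the part of base composition in the shares was not tested.

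The stretches around the match are shown for the genes in which it lies, with 20 bases on each side, wholly before the RefSeq start. The stretches are on the strand of the gene, with the first match in capitals. They are at chr6:24527688-24527736 (minus strand) for Ndufa5, chr17:56717682-56717730 (plus) for Ndufa11, chr2:36049339-36049387 (minus) for Ndufa8, chr4:123718256-123718304 (minus) for Ndufs5, chr16:37654531-37654579 (minus) for Ndufb4 and chr4:24897950-24897998 (plus) for Ndufaf4.
Ndufa5: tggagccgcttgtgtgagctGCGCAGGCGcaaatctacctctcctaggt
Ndufa11: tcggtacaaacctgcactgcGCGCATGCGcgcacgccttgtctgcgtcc
Ndufa8: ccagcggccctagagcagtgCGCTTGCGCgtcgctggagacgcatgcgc
Ndufs5: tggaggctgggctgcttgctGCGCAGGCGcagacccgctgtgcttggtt
Ndufb4: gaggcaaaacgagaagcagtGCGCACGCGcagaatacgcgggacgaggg
Ndufaf4: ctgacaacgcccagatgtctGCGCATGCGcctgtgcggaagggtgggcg

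In Ndufa8 the match is on the opposite strand, which is why its capitals read as the reverse complement. The distance from the end of the match to the start was 20 bases in Ndufa8, 51 in Ndufa11, 89 in Ndufs5, 104 in Ndufaf4, 181 in Ndufa5 and 182 in Ndufb4. These genes span 25.4 to 508 TPM by mean, so the letters were present in windows of an assembly factor and of one of the more abundant subunits alike. A match is a run of letters and not a measured binding site. In the annotation used for the levels, the stretches of Ndufa5 and Ndufa8 lie inside the gene. On the minus strand these genes begin at chr6:24528013 and chr2:36049406 there.

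YY1 letters (AAGATGGC, both strands) were in 8 of the 42 windows (19.0%), against 2.75% of all windows. None of the 8 lay wholly in the 250 bases before the start. The genes were Ndufc1, Ndufa9, Ndufa3, Ndufs7, Ndufaf8, Ndufs6, Ndufs4 and Ndufb8. GC box letters (GGGCGG) were in 52.4% of the Nduf windows and 35.7% of all, and letters of the ETS family, to which GABPA belongs (CCGGAAG), in 14.3% and 8.86%.

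The remaining motifs were no more frequent in Nduf windows than in all windows. CCAAT was in 33.3% of the Nduf windows and 37.4% of all, and TATAAA in 11.9% and 13.6%. The letters TCAAGGTCA of the oestrogen-related receptors were in 0 of the 42 and in 0.423% of all. Matches of different motifs were counted separately even where they overlapped.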

How the data were processed

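Total RNA libraries of 2 hearts were analysed from the tables that the authors deposited, on mm10 with the GENCODE M21 annotation per the text files deposited with them. For each gene the authors deposited estimated counts (fractions occur) and TPM (maximum likelihood and posterior mean), made from transcriptome alignments per those text files. The authors deposited with them the percent of each gene held by each transcript. The authors also deposited another set of estimated counts and TPM per transcript, made straight from the reads per the text files, called the second quantification and summed per gene here. The column names are those of RSEM and kallisto, but neither tool is named in the sources used here.

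Genes were matched by identifier and classed by textbook role. The members and the gene lists were chosen with earlier results of these data known. All but 1 member, which is counted but not reported here, were named, with values in both hearts for the 5 highest and 5 lowest structural symbols, the other core subunits, every assembly factor, genes differing by 2-fold or more between the quantifications, and the lists of mitochondrially encoded subunits and of other assembly factors. No gene met the remaining criterion of a 1.5-fold difference between the hearts. Coa1 of the assembly factor list was not found by symbol. Copies were the transcripts matching a coding sequence over 100 bases or more at 90% identity (blastn), leaving out genes that overlap the member, and Ndufb4c, BC002163, Gm15920, Gm4459 and Gm28439 were named after their values were seen, as were transcripts other than leaders.

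Log2 levels used a pseudocount of 0.1. Ratios between the hearts used rounded counts scaled by TMM (edgeR 4.0.16 in R 4.3.3) at a mean of 1 CPM or more, with exact binomial 95% intervals, which cover counting error only, and were checked on simulated data. The floor for a gene without counts was set at 3 counts. With the library total not adjusted, that is 0.0784 CPM in replicate 1 and 0.0738 CPM in replicate 2. Members had 171 to 23887 counts. The spike-ins took 0.505% and 0.577% of all counts. Alternatives were DESeq2 1.42.0 size factors, spike-in scaling, no filter, the second quantification, posterior means, other pseudocounts and leaving out each heart. The planned description of the encoded proteins was not run, since no protein sequences were used here.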

Additional observations from a re-analysis of the deposited data

How the results depend on the processing

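The planned and added alternatives gave 54 values, of which 39 were labelled unchanged. That label meant a move within the SD of the hearts or a count kept within 1.5 times. For promoter shares it meant a value within an exact binomial 95% interval, which uses no heart. Some alternatives could not lose the label, so the 39 do not measure robustness. Leaving out a heart moves a mean of 2 by less than their SD, and all 46 genes passed the filters. Leaving out the highest and the lowest gene, Ndufa4 and Ndufa4l2, keeps a median. With the second quantification the structural median was 409.9 TPM and the assembly factor median 23.5 TPM, their log2 difference was 4.12, the difference to complexes II to V was -1.20, the spread among structural symbols was 1.14, and the difference of matrix arm over membrane arm changed sign, to -0.047, for which the cause was not tested. The difference of structural symbols over assembly factors was 3.84 with a pseudocount of 1, 3.88 with posterior means and 3.57 with counts not divided by length. The spread among structural symbols was 0.77 without Ndufa4 and Ndufa4l2, and 1.11 with the TPM of 4 pseudogene copies added, an alternative chosen after seeing the data. Leaving out either heart gave structural medians of 284 to 305 TPM, assembly factor medians of 18.9 to 20.7 TPM and differences between them of 3.89 to 3.91. Without a filter on low counts, 4858 genes of all kinds differed by 2-fold or more, against 155 with it, while 0 members did under every scaling, filter and quantification tried. The share of Nduf promoters with YY1 letters was 0% in the 250 bases before the start. No paired analysis was possible because there is 1 group. Depth limits the ratios of the genes with the fewest counts most, such as Ndufaf2 and Ndufa4l2.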
